A study of Mus musculus with 12 samples.

Results

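The comparison is between 3 mutant and 3 control RNA-sequencing libraries made from the front of the hard palate (the anterior hard palate) in mouse embryos at embryonic day 16.5 (E16.5), chosen by their titles, out of 12 libraries in the series. The other 6 libraries hold the same 2 genotypes at E14.5. The mutants are labelled Shox2Cre; R26RFgf8: Cre recombinase made under Shox2 control removes a stop in front of an Fgf8 transgene at the Rosa26 locus, so Fgf8 is made where Shox2 has been active. The controls are labelled wild type, and all embryos are of the C57BL/6 strain. The labels do not say whether Cre takes the place of a Shox2 allele, whether control embryos carry Cre or the transgene alone, or whether a library is 1 embryo or a pool. All p-values therefore measure the spread between libraries of unstated origin.

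FGF8 is a secreted growth factor that binds FGF receptors on neighbouring cells and activates the RAS and ERK kinase cascade. That cascade switches on ETV transcription factors and its own inhibitors, among them the Sprouty proteins and the phosphatase DUSP6. In the anterior hard palate, cells of neural crest origin condense and turn directly into bone under RUNX2 and SP7, whereas cartilage elsewhere in the head forms under SOX9. The shelves are covered by stratified oral epithelium with keratins on the lower face and by ciliated and secretory nasal epithelium on the upper face.

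Total counts were 76417891 to 111946208 per E16.5 library. Levels are given in CPM, counts relative to library totals that were scaled by the TMM factors of the 6 libraries. A range runs from the lowest to the highest of the 3 libraries of a group. A gene was called at an edgeR adjusted p under 0.05. The first principal component held 63.6% of the variance, with controls at -49.8 to -38.9 and mutant libraries 1, 2 and 3 at 59.1, 18.1 and 51.3. The second held 16.7% and set mutant library 2, at -49.6, apart from the other 5, at 2.76 to 21.8. Mutant libraries 1 and 3 carried transcripts of the neural retina: Atoh7, a factor of retinal ganglion cells, was at 7.03, 0.0131 and 3.79 CPM in mutant libraries 1, 2 and 3, and the controls held 0.117, 0 and 0.0435 CPM. The summed level of the 30 retinal genes of the list, to which Sox2 and Ptprz1 of other tissues add most, was 506, 317 and 447 CPM in the mutants and 351–401 CPM in controls. Each mutant library is therefore given by itself for the genes that the results turn on. The groups also differed in embryo sex markers: Xist, the X-inactivation RNA, was at 335, 472 and 378 CPM in control libraries 1, 2 and 3 and at 898, 898 and 887 CPM in the mutants. The Y-linked genes Ddx3y, Kdm5d, Eif2s3y and Uty were called lower in the mutants with reads in every library. Eif2s3y, for example, was at 50.7, 45.4 and 45.7 CPM in controls and 26.5, 18.3 and 20.2 CPM in mutants. Xist and Y-linked transcripts were therefore present together in each of the 6 libraries. Whether the libraries were pools of male and female embryos, in a mix that differed between the groups, was not tested. The part of embryo sex in the results was not tested either.

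Over all genes, edgeR called 4793 of 17169 (27.9%), 2099 higher in the mutants (12.2%) and 2694 lower (15.7%). At least a 2-fold change was fitted for 538 of the higher and 1027 of the lower genes, and at least a 4-fold change for 185 and 152. The total was 3079 without control library 1 and 2781 without control library 2. The rises numbered 1137, 973 and 1312 without control library 1, control library 2 and mutant library 1, and 3211 with the replicate number as a block. The authors' deposited table calls 5536 of 18004 genes at the same threshold, 2578 higher and 2958 lower. All 3 mutant libraries lay above all 3 controls for 3509 of the genes tested (20.4%) and below them for 3968 (23.1%).

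The falls were shared by the 3 mutant libraries more evenly than the rises. Among the lower genes, the median difference from the control mean was -0.77, -0.70 and -0.77 on the log2 scale in mutant libraries 1, 2 and 3, and library 2 lay below every control for 2686 of 2694. Among the higher genes the medians were 0.68, 0.38 and 0.58. Library 2 lay above every control for 2005 of these, among the controls for 69 and below them for 25. The calls used library 2 itself, so its place among called genes is partly set by the selection. Among the 12376 genes not called, library 2 lay above every control for 3918, among them for 5056 and below them for 3402. A rise past 2-fold in libraries 1 and 3 with less than 0.5 in library 2 (log2) was seen for 114 of the higher genes, against 1 such gene among the lower. With library 2 as the only mutant library, its spread taken from the controls, 729 genes were called higher and 1767 lower.

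**Figure D1:**
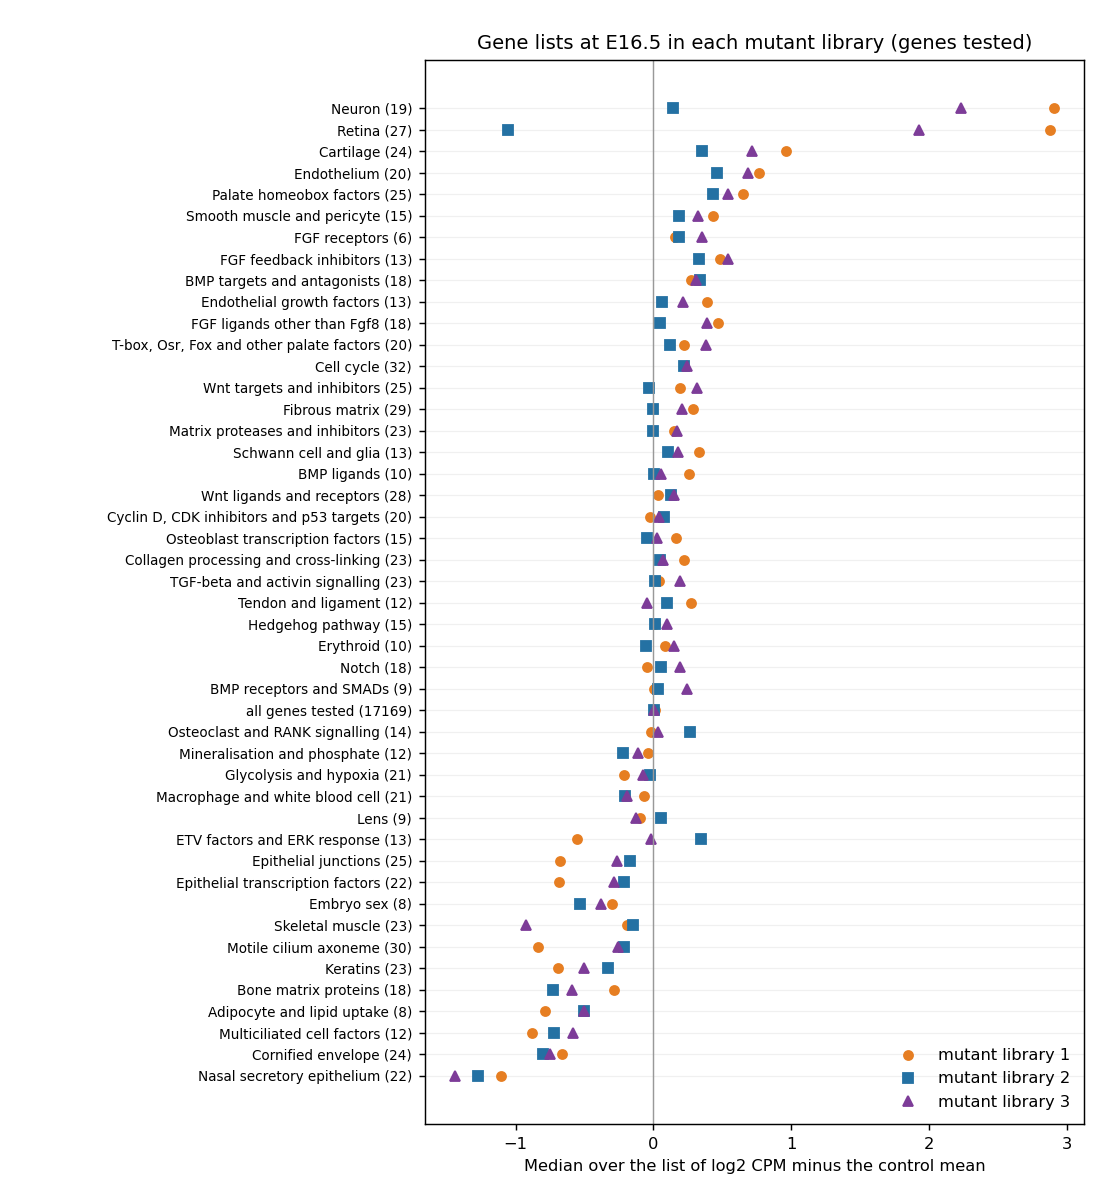
Median difference from the control mean (log2 CPM, x axis) over the tested genes of each list (y axis, number of genes in brackets), in mutant libraries 1 (circles), 2 (squares) and 3 (triangles). The Neuron and Retina lists stand at 2.91 and 2.88 in library 1 and at 0.14 and -1.06 in library 2, whereas the Nasal secretory list lies between -1.44 and -1.11 in all 3. The Retina list includes genes of very few reads in the controls and in library 2.

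Fgf8 itself checks the labels. It was at 0.423, 0.453 and 0.250 CPM in control libraries 1, 2 and 3 and at 16.7, 13.8 and 17.7 CPM in the 3 mutants (log2 fold change 5.42, SE 0.22, adjusted p = 6.33e-06). Counts per gene symbol do not separate the transgene from the Fgf8 locus. Shox2, a homeobox gene of the anterior palate whose control elements drive Cre, was at 88.1, 83.7 and 94.4 CPM in controls, and the mutants held 153, 111 and 153 CPM. Its rise (log2 fold change 0.65, SE 0.12, adjusted p = 0.00548) was smallest in library 2 and missed the threshold there alone (adjusted p = 0.0628).

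The inhibitors that FGF signalling induces in its own pathway rose in part. Of 13 such genes, 6 rose and 2 fell, with a median log2 difference of 0.36 beside 0.01 over all genes tested, where 12.2% rose and 15.7% fell. The counts given for each list below stand beside the same shares. Spry4, a Sprouty inhibitor of receptor kinase signalling, stood at 7.48, 6.66 and 10.1 CPM in the controls and at 67.5, 47.3 and 76.7 CPM in the mutants. Spry2 and Spry1, of the same family, were at 30.4–35.2 and 77.5–84.6 CPM in controls, and mutants held 63.1–78.5 and 143–159.9 CPM. Dusp6, which removes the activating phosphates of ERK, was at 79.2, 90.6 and 92.1 CPM and then 210.3, 203 and 216 CPM. The log2 fold changes of these genes were 2.98, 1.15, 0.92 and 1.27, with no overlap between the groups. Il17rd, a membrane inhibitor of FGF signalling, rose less, by 0.46. The MAP kinase phosphatases Dusp5 and Dusp14 went the other way and fell by 1.14 and 0.93 on the log2 scale. In mutant library 2 alone Il17rd (adjusted p = 0.0832) and Dusp5 (adjusted p = 0.0880) missed the threshold. Spred2 did not pass the test, at 56.4–65.7 CPM in controls and 51.7–66.5 CPM in mutants (adjusted p = 0.964).

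Transcription factors and early genes downstream of ERK rose in part. Of 13 tested, 4 rose, 0 fell and 9 were not called, and the median was -0.18 (-0.56, 0.35 and -0.02 in mutant libraries 1, 2 and 3). Without mutant library 2 the falls numbered 2. Etv5, an ETS factor induced by FGF signalling, was at 46.8, 42.9 and 50.9 CPM in controls and 98.1, 81.1 and 102 CPM in mutants (log2 fold change 1.001, SE 0.10, adjusted p = 0.000189). Its relatives did not pass the test: Etv4 was at 10.1, 7.17 and 8.34 CPM in controls and 5.17, 8.77 and 4.91 CPM in mutants (adjusted p = 0.199, or 0.00665 without mutant library 2), and Etv1 at 14.7–15.5 and 10.02–14.1 CPM (adjusted p = 0.113, or 0.0462 without mutant library 1). Myc, a growth-promoting factor, rose from 37.0–39.0 CPM to 80.7, 125 and 114 CPM, and Egr3, an early response factor, from 1.28–2.75 to 7.29–8.14 CPM. Its relative Egr1 overlapped between the groups, since mutant library 1 was at 55.0 CPM and library 2 at 247 CPM beside 155–204 in controls. Ccnd1, cyclin D1, was at 296, 65.7 and 189 CPM in the 3 mutants and 76.6–87.0 CPM in controls and was not called (adjusted p = 0.0702, or 0.000112 without library 2).

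Among the other FGF ligands, 3 of 18 rose and 4 fell, or 0 and 3 in mutant library 2 alone. Fgf18, a ligand made by cells that form bone, fell from 5.11, 5.59 and 4.71 CPM in the controls to 0.347, 1.21 and 0.850 CPM in the mutants (log2 fold change -2.70, SE 0.39, adjusted p = 0.00125). Fgf16 fell by 1.34 on the log2 scale. Fgf10, a mesenchymal ligand for the palate epithelium, was at 17.2–22.1 CPM in controls and 10.8–15.9 CPM in mutants and was not called (adjusted p = 0.0551, or 0.0130 with the replicate number as a block and 0.0457 without mutant library 1). Fgf7 overlapped between the groups. Fgf15, which is made in the retina, was at 40.9, 0.341 and 21.0 CPM in the mutants and so high in libraries 1 and 3 only, and its call ended without any 1 control library (adjusted p up to 0.0770). The count of rises among ligands hung on single libraries: leaving out control library 3 gave 0, leaving out mutant library 3 gave 1 and leaving out mutant library 2 gave 6, and that of falls was 2 without control library 1 or 2 or mutant library 3. Of 6 receptors, Fgfr1 rose (263–275 to 374–445 CPM), as did Fgfrl1, a receptor that lacks the kinase (26.4–28.9 to 50.8–58.4 CPM). Fgfr3 fell from 136–142 to 95.6–111 CPM, with an adjusted p of 0.0609 in library 2 alone. Fgfr2 was at 418, 417 and 445 CPM in controls and 326, 437 and 416 CPM in mutants, which was not called.

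**Figure D2:**
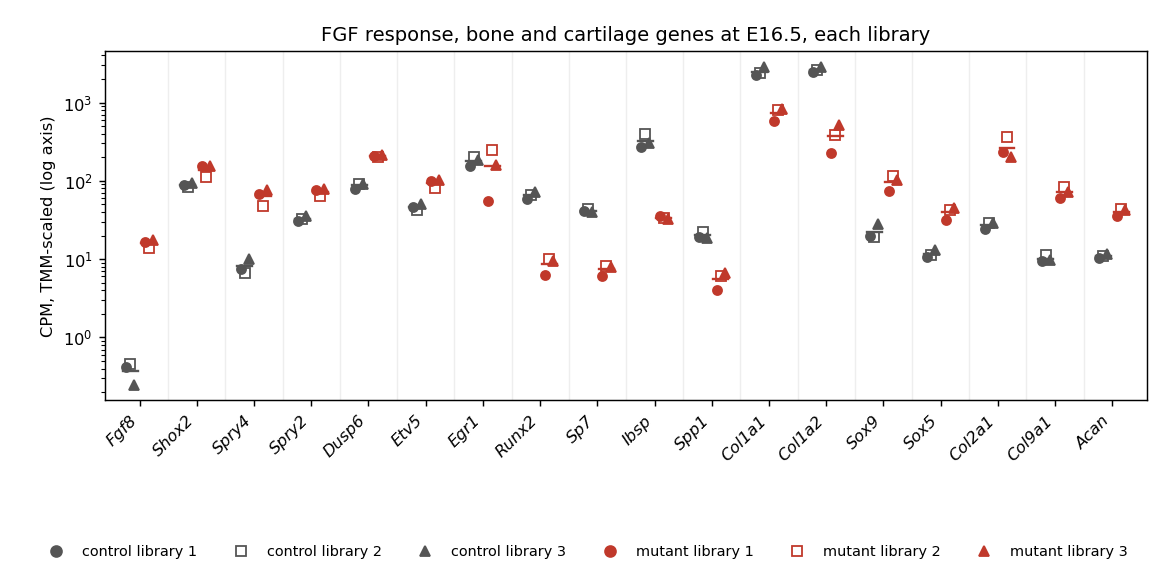
CPM on a log axis (y) for 18 genes (x) in each control library (grey) and mutant library (red), with circles, open squares and triangles for libraries 1, 2 and 3 and a line at each group mean. Fgf8, Spry4 and Col2a1 lie higher in all 3 mutant libraries, Runx2, Sp7, Ibsp and Col1a2 lie lower, and Egr1 is low in mutant library 1 alone.

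Of 15 osteoblast transcription factors 5 fell, 3 rose and 7 were not called, with a median of 0.09. Runx2, which osteoblasts need to form, stood at 58.8, 65.3 and 71.6 CPM in control libraries 1, 2 and 3 and at 6.24, 10.1 and 9.42 CPM in the 3 mutants (log2 fold change -2.93, SE 0.18, adjusted p = 1.25e-05). Sp7, which acts after Runx2, was at 41.2, 43.1 and 39.4 CPM and then at 6.01, 8.28 and 8.02 CPM. Creb3l1, a factor of the secretory pathway in osteoblasts, fell from 44.6–52.6 to 4.15, 9.98 and 5.69 CPM, and Dlx5, a homeobox activator of osteoblast genes, from 11.9–12.4 to 1.78–2.53 CPM. For each of these 4 genes every mutant library was far below every control. In bulk tissue, fewer bone-forming cells and less RNA of these genes per cell cannot be told apart.

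The list did not move together, and in library 2 alone 4 of the 15 fell and 0 rose. Runx3, a relative of Runx2, fell from 3.98–5.14 to 2.87–3.27 CPM, but leaving out any library other than mutant 2 ended the call (adjusted p up to 0.135). Among the rises were those of Msx2 and Cbfb, the partner subunit of RUNX proteins (165–195 to 219–249.9 CPM). Without control library 1 or 2 Msx2 and Cbfb were not called, and the rises of the list then numbered 1. Twist1, which restrains RUNX2, was at 146–164 CPM in controls and 148–179.8 CPM in mutants (adjusted p = 0.370). Runx1 was at 78.4–106 and 63.4–91.1 CPM and was not called (adjusted p = 0.275, or 0.00638 with the replicate block).

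Of 18 bone matrix genes tested, 9 fell and 2 rose, with a median of -0.51, and the falls numbered 10 with mutant library 2 alone. Ibsp, bone sialoprotein, was at 274, 391 and 304 CPM in the controls and at 35.03, 33.4 and 32.6 CPM in the mutants (log2 fold change -3.26, SE 0.14, adjusted p = 6.33e-06), close together in all 3 mutant libraries. Spp1, osteopontin, fell from 19.2, 22.4 and 18.8 CPM to 4.05, 6.01 and 6.58 CPM. Col1a1 and Col1a2, the chains of type I collagen, were at 2229–2813 and 2448–2811 CPM in controls. In mutant libraries 1, 2 and 3 they were at 586, 793 and 815 CPM and 224, 386 and 522 CPM, so Col1a2 fell by 2.79 and Col1a1 by 1.76 on the log2 scale, although both chains form the same protein.

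Other falls in the bone matrix list were those of Dmp1, Ifitm5 and Bglap. Dmp1, a mineral-binding protein of osteocytes, fell from 3.58–4.53 to 0.408–0.642 CPM, and Ifitm5, a membrane protein of mineralising osteoblasts, from 13.2–15.6 to 2.55–3.29 CPM. Bglap, osteocalcin, fell from 0.728–0.775 to 0.118–0.236 CPM, while its near-identical neighbour Bglap2 was at 0.196–0.482 and 0.236–0.451 CPM, and how reads were split between the copies is not given. Sparc, a matrix protein of many tissues, was at 1035–1161 CPM in controls and 963–1082 CPM in mutants (adjusted p = 0.407). Serpinf1 and Tnn rose, by 0.56 and 0.45 on the log2 scale, and Tnn had an adjusted p of 0.0725 without control library 1. The summed level of the bone matrix list was 7806–9004 CPM in controls and 3919.9, 3838 and 4445 CPM in mutant libraries 1, 2 and 3.

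RUNX proteins bind the letters TGTGGT, or ACCACA on the other strand. Of the 18 genes of the osteoblast factor, bone matrix and mineralisation lists that were called lower, 13 have a promoter in the RefSeq table (build GRCm38.p6, 250 bases before to 50 after the start, 18 promoters in all), and 6 of these genes hold the letters in at least 1 promoter, among them Bglap, Dmp1, Runx2 and Spp1. The letters occur in 16.8% of all 32851 promoters of the same 300 bases and in 6 of the 18. The 6 genes do not include Ibsp, Sp7, Col1a1 or Col1a2. For Runx2, Bglap and Spp1, the factor and 2 matrix genes that fell with it, 1 promoter each is shown. These were taken from promoters that hold the letters, so the matches in them were fixed by the choice. Capitals mark the letters on either strand, each sequence reads 5′ to 3′ on the gene's own strand, and a match is not a measured binding site. The counts were made on another build (mm9). The regions are chr17:44814578-44814877 (minus strand, 3 matches), chr3:88384417-88384716 (minus strand, 1 match) and chr5:104434861-104435160 (plus strand, 1 match).
Runx2: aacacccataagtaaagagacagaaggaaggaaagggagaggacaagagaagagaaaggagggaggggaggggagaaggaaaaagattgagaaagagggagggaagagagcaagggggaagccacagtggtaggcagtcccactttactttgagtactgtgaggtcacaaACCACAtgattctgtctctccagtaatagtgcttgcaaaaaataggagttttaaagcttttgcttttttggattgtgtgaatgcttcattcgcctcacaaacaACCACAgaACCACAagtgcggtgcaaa
Bglap: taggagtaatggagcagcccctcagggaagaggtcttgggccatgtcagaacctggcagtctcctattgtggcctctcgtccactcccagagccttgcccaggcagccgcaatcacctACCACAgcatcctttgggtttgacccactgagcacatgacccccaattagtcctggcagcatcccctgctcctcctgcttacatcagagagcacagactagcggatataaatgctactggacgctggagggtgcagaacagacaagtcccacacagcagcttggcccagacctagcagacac
Spp1: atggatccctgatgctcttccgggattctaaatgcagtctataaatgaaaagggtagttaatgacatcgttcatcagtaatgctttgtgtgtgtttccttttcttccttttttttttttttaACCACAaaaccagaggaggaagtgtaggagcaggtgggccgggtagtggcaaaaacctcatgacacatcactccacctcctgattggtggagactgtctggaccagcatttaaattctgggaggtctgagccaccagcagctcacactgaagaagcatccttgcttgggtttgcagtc

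Mineralisation genes fell in 4 of 12 cases. Phospho1, a phosphatase that starts mineral inside matrix vesicles, fell from 3.21, 4.05 and 3.27 CPM to 0.677, 0.747 and 0.697 CPM (log2 fold change -2.31, SE 0.20, adjusted p = 7.15e-05). Slc13a5, a citrate transporter of bone, fell from 9.88–12.3 to 2.17–2.38 CPM. Alpl, the tissue alkaline phosphatase, fell by far less, from 91.5–97.1 to 73.3–79.5 CPM (log2 fold change -0.31). Enpp1 and Phex overlapped between the groups. Smpd3 was at 43.6, 22.3 and 33.2 CPM in the mutants beside 52.97–58.9 in controls, and its call ended without control library 1, 2 or 3 or mutant library 3 (adjusted p up to 0.0693).

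Enzymes that process collagen went both ways, with 9 of 23 rising and 3 falling, around a median of 0.08. Lox, lysyl oxidase, which cross-links collagen and elastin, was at 413, 417 and 499 CPM in the controls and 62.2, 85.0 and 79.3 CPM in the mutants (log2 fold change -2.55, SE 0.13, adjusted p = 7.82e-06). Its relative Loxl4 fell from 9.24–11.7 to 3.41–4.30 CPM, whereas Loxl3 rose from 18.2–21.4 to 31.8–42.7 CPM. Adamts14, a procollagen peptidase, rose by 0.65 on the log2 scale. The number of rises was 5 without control library 1 or 3 or mutant library 1 and 4 without control library 2, and in mutant library 2 alone 2 rose and 2 fell.

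Osteoclast genes did not follow the bone matrix. Of 14 tested, 4 rose and 1 fell, and the median was -0.02. Acp5, the acid phosphatase of osteoclasts, was at 22.5–25.9 CPM in controls and 19.5–28.1 CPM in mutants (adjusted p = 0.863). Atp6v0d2, a proton pump subunit, rose from 0.376–0.574 to 1.20–1.47 CPM. Mmp9, a gelatinase of osteoclasts and other cells, fell from 10.6, 6.84 and 9.39 CPM to 2.06, 2.97 and 2.59 CPM (log2 fold change -1.82, SE 0.21, adjusted p = 0.000366). The decoy receptor gene Tnfrsf11b and the ligand gene Tnfsf11 were not called. The count of rises was 2 without control library 1, 2 or 3 and 1 in mutant library 2 alone.

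Cartilage genes moved the other way from bone. Of 24 tested, 12 rose and 3 fell, with a median of 0.63 (0.96, 0.35 and 0.72 in mutant libraries 1, 2 and 3), and library 2 alone gave 10 and 3. Sox9, the factor that starts cartilage, stood at 19.9, 18.9 and 28.4 CPM in the controls and 74.9, 116 and 102 CPM in the mutants (log2 fold change 2.12, SE 0.20, adjusted p = 0.000109), with library 2 the highest. Sox5, its partner, rose from 10.6–13.0 to 31.8–45.2 CPM, while Sox6 was at 70.5–92.6 CPM in controls and 52.7–84.6 CPM in mutants and was not called. Col2a1, the main collagen of cartilage, was at 24.1, 29.2 and 29.1 CPM and then 232, 362 and 199 CPM. Col9a1 and Col9a3, chains of a collagen that coats those fibrils, rose from 9.32–11.2 to 59.5–82.4 and from 17.7–18.2 to 77.4–108 CPM. Acan, aggrecan, rose from 10.4–11.7 to 35.4–43.1 CPM.

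Not every cartilage gene followed. Col11a1 and Col11a2, minor fibrillar chains that bone and palate mesenchyme also make, fell from 212–237 to 54.0–90.3 CPM and from 35.8–41.8 to 6.26–9.80 CPM. Cytl1, a secreted protein of cartilage, was at 0.282, 0.0110 and 0.0652 CPM in controls and 20.6, 6.59 and 10.3 CPM in mutants, the largest fold of the list (log2 fold change 6.73, SE 0.72, adjusted p = 0.000256). Matn1, a matrilin of mature cartilage, was at 0.0470, 0.133 and 0.0217 CPM in controls and 0.156, 0.170 and 0.189 CPM in mutants, every mutant above every control, and was not called (adjusted p = 0.152). The summed level of the list was 673–743 CPM in controls and 1082, 1239 and 1096 CPM in mutants.

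Of 25 homeobox factors that pattern the palate and jaw 16 rose and 2 fell, with a median of 0.55 (0.65, 0.43 and 0.54 by mutant library). Msx1, a factor of the anterior palate, was at 18.9, 11.3 and 16.5 CPM in controls and 45.2, 78.3 and 78.9 CPM in mutants (log2 fold change 2.12, SE 0.25, adjusted p = 0.000409). Dlx2 rose from 9.63, 6.69 and 9.48 CPM to 35.6, 68.9 and 58.8 CPM and Dlx1 from 2.75–6.07 to 17.0–24.0 CPM, whereas Dlx5 fell, as given above. Prrx1, a factor of undifferentiated limb and face mesenchyme, was at 408, 400.1 and 487 CPM and then 1115, 1848 and 1945 CPM. Its relative Prrx2 rose by 0.93, and Meox2 from 7.88–9.55 to 20.01–30.5 CPM. Lhx6 and Lhx8 rose less, by 0.90 and 0.72 on the log2 scale. For Msx1, Dlx2 and Prrx1 library 1, which held the most retinal transcripts, was the lowest of the mutants. Alx4 was at 51.5–60.2 CPM in controls and 46.7–63.0 CPM in mutants and was not called. The falls numbered 1 without control library 2 or 3 or mutant library 3.

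Among T-box, Osr, Fox and other palate factors, 7 of 20 rose and 3 fell. Tbx2 and Tbx3, related repressors, rose from 55.3–59.8 to 221, 177 and 207 CPM and from 35.5–46.0 to 81.7, 122 and 139 CPM. Osr1 rose from 19.996–23.8 to 44.1, 29.4 and 41.0 CPM. Its relative Osr2, which palate growth needs, was at 43.6–47.6 and 50.8–55.6 CPM and missed the threshold (adjusted p = 0.0548, or 0.0106 with the replicate block). Mn1, a co-factor that palate growth needs, fell from 67.8, 73.3 and 97.2 CPM to 11.1, 16.2 and 21.3 CPM (log2 fold change -2.30, SE 0.23, adjusted p = 0.000170). Tbx22, a gene of human cleft palate, overlapped between the groups at 2.36–3.09 CPM in controls and 2.33–4.89 CPM in mutants.

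Genes of the BMP pathway, which drives bone and cartilage formation, changed by layer. Of 10 ligands, 3 rose and 3 fell. Bmp2 rose from 36.2, 38.2 and 46.1 CPM to 81.4, 59.4 and 80.0 CPM, Bmp5 from 4.36–4.93 to 14.8–18.2 CPM and Bmp6 from 36.0–41.9 to 58.0–62.5 CPM. Without mutant library 2 the rises numbered 5. Bmp8a and Gdf6 fell by 2.46 and 1.38 on the log2 scale. Bmp4, of the palate mesenchyme, was at 25.6–27.5 CPM in controls and 20.3–25.9 CPM in mutants and was not called (adjusted p = 0.146, or 0.0443 with the replicate block and 0.0296 without mutant library 1). Among the signal carriers, Smad9 rose from 10.3, 11.1 and 11.4 CPM to 54.1, 82.2 and 79.7 CPM (log2 fold change 2.72, SE 0.16, adjusted p = 1.10e-05) and its relative Smad5 fell from 197, 200.3 and 227 CPM to 44.2, 65.5 and 62.3 CPM (log2 fold change -1.86, SE 0.14, adjusted p = 3.97e-05). Smad1, the third of that subfamily, was at 51.3–62.4 CPM in controls and 51.6–62.6 CPM in mutants.

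Of 18 targets and antagonists of BMP signalling, 8 rose and the other 10 were not called, around a median of 0.33. Id3 and Id4, inhibitors of differentiation that BMP induces, rose from 126–147 to 188–222 CPM and from 29.2–35.3 to 64.1–72.1 CPM, and Id1 was not called (adjusted p = 0.139, or 0.00925 with the replicate block and 0.0354 without control library 2). The antagonist Chrdl2 rose by 2.67 on the log2 scale. Nog, Chrd and Grem1 overlapped between the groups.

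Of 28 Wnt ligands and receptors 7 rose and 3 fell, and of 25 Wnt targets and inhibitors 11 rose and 3 fell. Wnt5a, a ligand of the anterior palate, was at 93.8, 91.0 and 108 CPM in controls and 133, 227 and 249 CPM in mutants (log2 fold change 1.06, SE 0.21, adjusted p = 0.00635). Fzd9, a Frizzled receptor, rose from 7.22–7.74 to 21.1–32.5 CPM and Rspo2, an enhancer of Wnt signalling, from 1.77–2.60 to 12.4, 5.08 and 8.04 CPM. Axin2, the standard target of canonical Wnt signalling, fell by 0.34 on the log2 scale, from 54.8–57.1 to 38.8–48.7 CPM, and that call ended without control library 1, 2 or 3 (adjusted p up to 0.0758). Lgr5, a receptor gene that Wnt signalling induces, rose from 12.1–18.0 to 25.6–33.2 CPM. The secreted inhibitors Dkk1 and Frzb rose by 0.86 and 0.97. The ligand rises numbered 4 without control library 3, and the falls 1 without any of the controls or mutant library 1 or 3, 6 without mutant library 2 and 7 with the replicate number as a block. The target rises numbered 6, 5 and 7 without control library 1, control library 2 and mutant library 3, and 6 in mutant library 2 alone.

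Of 15 Hedgehog pathway genes 3 rose and 4 fell, or 1 each way in library 2 alone. Hhip, a membrane protein that binds and sequesters Hedgehog ligands, fell from 43.6, 39.0 and 51.5 CPM to 6.53, 9.29 and 6.61 CPM (log2 fold change -2.58, SE 0.16, adjusted p = 1.52e-05). Shh, the ligand of the palate ridges, rose from 10.9–14.3 to 23.4–27.1 CPM. Gli1, a direct target, was at 58.3–68.3 CPM in controls and 58.1–72.4 CPM in mutants (adjusted p = 0.724), and Ptch1, another, fell by 0.29 on the log2 scale, a call that only the fit without control library 2 kept among those that leave out 1 library (adjusted p up to 0.125 in the others). The falls numbered 1 without control library 1, control library 3 or mutant library 1 and 2 without control library 2 or mutant library 3.

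In the TGF-beta and activin list 3 of 23 rose and 2 fell. Inhba, an activin subunit, rose from 10.6, 9.51 and 10.3 CPM to 30.3, 24.5 and 27.9 CPM (log2 fold change 1.44, SE 0.10, adjusted p = 2.27e-05), and its relative Inhbb fell from 15.5–16.7 to 9.05–9.89 CPM. Tgfb3, which fusion of the palate shelves needs, was at 78.3–83.2 CPM in controls and 70.5–74.3 CPM in mutants and was not called (adjusted p = 0.0691, or 0.0185 with the replicate block). With that block 6 of the list rose and 5 fell, and 4 fell without mutant library 2.

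Matrix genes of soft connective tissue were mixed, with 10 of 29 rising and 6 falling. Fn1, fibronectin, was among the steepest falls, from 525, 581 and 607 CPM to 52.9, 104 and 91.0 CPM (log2 fold change -2.79, SE 0.22, adjusted p = 4.81e-05). Postn, periostin, fell from 1988–2233 to 1532, 1224 and 1290.2 CPM. Tnc, tenascin C, Vcan, versican, and Bgn, biglycan, rose from 379–433, 359–419.6 and 467–506 CPM to 648–761, 512–591 and 663–913 CPM. Col3a1, the collagen of soft tissue fibrils, was at 3709.8–4277 CPM in controls and 3018–3809 CPM in mutants and was not called. The rises numbered 4 or 5 without control library 1 (4), control library 2 (4), mutant library 1 (5) or mutant library 3 (4), and 4 in library 2 alone. Of 23 matrix proteases and inhibitors 3 rose and 3 fell, among them the inhibitors Timp3 (log2 fold change 1.02) and Timp4 (-1.50), which went opposite ways. The rises numbered 1 without control library 1 and 6 with the replicate block. Of 12 tendon genes 4 rose and 2 fell. Scx, the tendon factor, rose from 2.99–3.57 to 4.91–5.67 CPM, and Tnmd, a tendon membrane protein, was at 4.198–7.73 and 5.13–6.57 CPM and not called. The tendon rises numbered 2 with limma-voom, with the block and without control library 1 or 2 or mutant library 1 or 3, and the falls 1 without control library 2 or 3.

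Many epithelial genes were lower. Of 23 keratins 13 fell, with a median of -0.50 (-0.69, -0.33 and -0.51 by mutant library). Krt76, a keratin of the hard palate surface, was at 261, 256 and 241 CPM in the controls and 37.5, 31.3 and 31.8 CPM in the mutants (log2 fold change -2.92, SE 0.09, adjusted p = 5.05e-06). Krt10, a keratin of suprabasal cells, fell from 699.6–854 to 372–429 CPM. Krt8 and Krt18, the pair of simple epithelia, fell from 386–429.6 to 162, 252 and 192 CPM and from 114–125 to 49.2, 71.8 and 56.4 CPM. The basal keratins Krt5 and Krt14 were at 4142, 3763 and 4196 CPM and 1449, 1356 and 1343 CPM in controls. In mutants they were at 2556, 4180.3 and 3608 CPM and 1135, 1959 and 1505 CPM, so that library 1 was the lowest and library 2 the highest of the mutants, and neither was called. Library 2 alone gave 9 keratins lower and 4 higher.

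Cornified envelope genes, which build the tough outer layer, fell in 21 of 24 cases, or 13 in library 2 alone, and their median of -0.75 was alike in the 3 mutant libraries (-0.66, -0.80 and -0.75). Lor, loricrin, was at 260.0, 236 and 322 CPM in controls and 114, 115 and 173 CPM in mutants. Rptn, repetin, and Hrnr, hornerin, fell from 339–381 to 152, 97.6 and 136 CPM and from 80.4–100.3 to 35.4, 22.4 and 34.0 CPM. Tgm3, which cross-links the envelope, fell by 0.99 on the log2 scale. The summed level was 5589.9–5990.4 CPM in controls and 3550.4, 3851 and 3523 CPM in mutants.

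Of 25 genes of epithelial junctions 10 fell, and of 22 epithelial transcription factors 9. Dsc1, a desmosomal cadherin of upper layers, fell from 51.1, 51.1 and 60.2 CPM to 14.7, 12.6 and 14.8 CPM (log2 fold change -1.95, SE 0.10, adjusted p = 7.79e-06), and the tight junction proteins Cldn3 and Cldn7 from 53.7–58.0 to 20.7, 29.7 and 23.9 CPM and from 46.2–47.1 to 17.0, 24.0 and 22.2 CPM. Cdh1, E-cadherin, was at 487–558 CPM in controls and 292, 458 and 433 CPM in mutants and was not called (adjusted p = 0.107, or 0.0355 with the replicate block and 0.0402 without mutant library 2). Dsp, desmoplakin, overlapped between the groups. Elf3 and Ehf, ETS factors of epithelia, fell from 65.5–72.6 to 36.4–39.4 and from 239–299.8 to 137–150.3 CPM. Trp63, which keeps the basal layer, was at 285–331 CPM in controls. The mutants held 198, 304 and 298 CPM, with library 1 the lowest and library 2 among the controls, and the gene was not called. The junction falls dropped to 6 without control library 1 or 3 or mutant library 3 and to 4 without control library 2, and grew to 16 without mutant library 2 and to 17 with the replicate block. Those of the factors numbered 5 without control library 2, 14 with DESeq2 and 15 with the block. In library 2 alone 4 junction genes fell and 2 rose, and 4 of the factors fell.

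Of 22 secretory genes of the nasal epithelium 21 fell, with a median of -1.36 (-1.11, -1.28 and -1.44), and 15 did in library 2 alone. Foxa1, a pioneer factor of airway epithelium, was at 78.0, 89.5 and 89.6 CPM in the controls and 24.7, 28.0 and 32.0 CPM in the mutants (log2 fold change -1.60, SE 0.11, adjusted p = 1.76e-05). Sec14l3, a lipid transfer protein of ciliated epithelium, fell from 269, 277 and 274 CPM to 67.6, 73.5 and 71.1 CPM and Cyp2f2, a P450 enzyme of secretory cells, from 684–709 to 324–375 CPM. The mucins Muc5ac and Muc5b fell from 4.22–4.42 to 0.681–1.31 and from 9.91–16.6 to 2.79–4.27 CPM. In each of these genes every mutant library lay below every control. The summed level was 1511–1538 CPM in controls and 642, 682 and 667 CPM in mutants.

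Genes of motile cilia fell in 14 of 30 cases and rose in 1, and those of factors that make multiciliated cells fell in 7 of 12. The median of the cilia list was -0.47 (-0.84, -0.21 and -0.26 by mutant library). Its summed level was 2165–2347 CPM in controls and 1365, 1942 and 2317 CPM in mutants, so library 3 lay among the controls. Dnah9, a heavy chain of the outer dynein arm, was at 74.8, 85.2 and 83.9 CPM in controls and 19.9, 25.5 and 24.6 CPM in mutants (log2 fold change -1.80, SE 0.11, adjusted p = 1.15e-05). Spag6, of the central pair, fell from 55.4, 63.3 and 58.9 CPM to 14.03, 15.4 and 14.8 CPM and Meig1 from 32.6–36.1 to 7.44–9.93 CPM. Among the factors, Gmnc, which starts the multiciliated programme, and Myb fell from 10.4–12.03 to 3.61–4.53 and from 75.3–93.5 to 25.4–41.2 CPM, and Ccdc67 and Cdc20b, of centriole amplification, had log2 fold changes of -2.15 and -2.26. Foxj1, the master factor of motile cilia, was at 399, 472 and 403 CPM in controls and 104, 387 and 350.1 CPM in mutants, with every mutant below every control and library 1 far the lowest, and was not called (adjusted p = 0.296). The axoneme gene Tekt1 overlapped between the groups, and Dnah5 was at 199–239 and 224, 323 and 299.8 CPM, not called (adjusted p = 0.0709) but higher with the replicate block (0.0157) and without mutant library 1 (0.00632). The rise was that of Ccdc40, from 100.4–109 to 116, 166 and 151 CPM, and its call ended without any 1 control library or mutant library 2 or 3 (adjusted p = 0.101, 0.0963, 0.0592, 0.0584 and 0.0708). The axoneme rises numbered 4 without mutant library 1, 3 in library 2 alone, 2 with DESeq2 and with the block, and 0 without any 1 of the other 5 libraries.

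**Figure D3:**
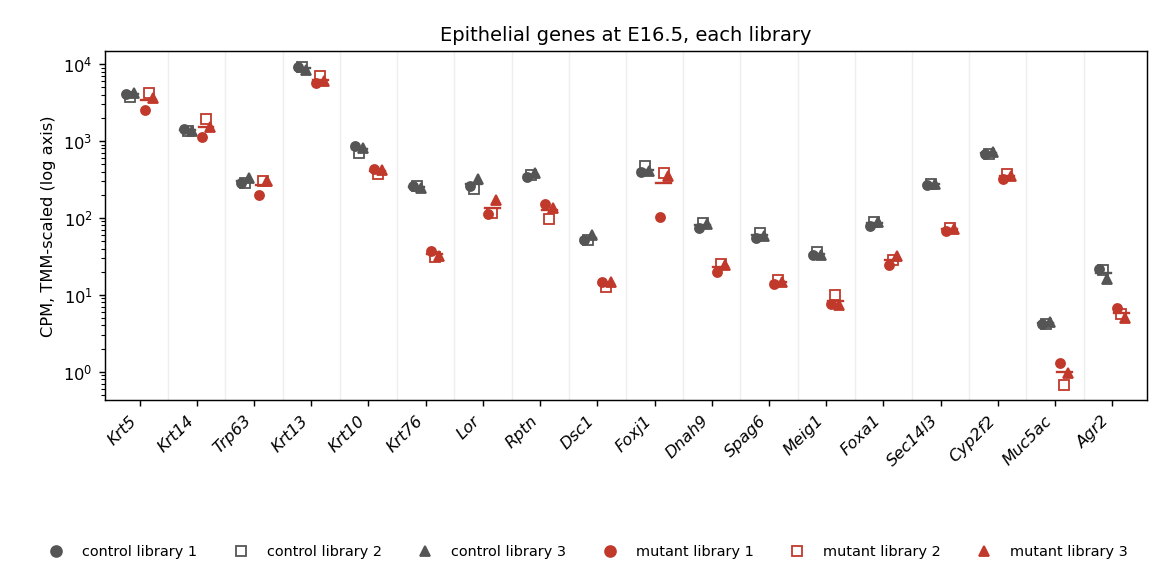
CPM on a log axis (y) for 18 epithelial genes (x) in each control library (grey) and mutant library (red), with circles, open squares and triangles for libraries 1, 2 and 3 and a line at each group mean. Krt76, Sec14l3 and Spag6 are lower in all 3 mutant libraries, whereas Krt5, Trp63 and Foxj1 are lowest in mutant library 1 and near the controls in library 2.

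Endothelial genes rose in 16 of 20 cases, while 9 rose and 1 fell in library 2 alone and 16 rose and 1 fell without mutant library 1, with a median of 0.63 (0.77, 0.46 and 0.69 by mutant library). Pecam1 and Cdh5, adhesion proteins of blood vessels, are examples: Pecam1 was at 49.4, 44.5 and 44.6 CPM in controls and 84.2, 63.0 and 72.2 CPM in mutants, and Cdh5 rose from 57.0–67.9 to 103, 82.3 and 106 CPM. Kdr, the main VEGF receptor, rose from 34.6–39.3 to 79.9, 46.9 and 67.9 CPM, and Eng from 34.0–38.8 to 77.1, 54.6 and 67.6 CPM. Library 2 lay above the controls for each of these 4 genes and below libraries 1 and 3, and Kdr missed the threshold in library 2 alone (adjusted p = 0.0593). The summed level of the list was 510.4–523 CPM in controls and 829.7, 644 and 743 CPM in mutants. The retinal transcripts of libraries 1 and 3 moved with the larger rises there, and their part in the result was not tested.

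Vegfa, the chief growth factor for vessels, went the other way and fell from 102, 110.2 and 99.0 CPM to 18.9, 32.5 and 30.8 CPM (log2 fold change -1.92, SE 0.18, adjusted p = 0.000123). Of 13 endothelial growth factors 6 rose and 2 fell. Sema3e, a guidance ligand for vessels, rose from 34.0–38.4 to 132, 86.7 and 128 CPM, and Angpt2 from 6.92–8.47 to 10.8–11.9 CPM. The rises numbered 3 without control library 2 and 2 in mutant library 2 alone, and the falls 1 without control library 1, 2 or 3 or mutant library 3. Of 15 smooth muscle and pericyte genes 7 rose and 1 fell. Acta2, smooth muscle actin, and Pdgfrb, a pericyte receptor, rose from 21.0–30.8 to 47.9, 48.1 and 41.9 CPM and from 96.6–106 to 205, 148 and 192 CPM, whereas Myh11, the smooth muscle myosin, fell from 19.2–21.0 to 9.58–10.1 CPM. The rises numbered 3 without control library 2.

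Transcripts of the neural retina were high in mutant libraries 1 and 3 and not in library 2, where the median of the list was -1.06 on the log2 scale. The list includes genes of very few reads in the controls and in library 2, such as Atoh7 and Crx. For such genes a few reads move the log2 difference, so the size of that median is uncertain. Of 27 retinal genes tested, 14 were called higher with all 3 mutants, and 1 in library 2 alone, where 5 were called lower. Atoh7, which starts ganglion cells, was at 0.117, 0 and 0.0435 CPM in control libraries 1, 2 and 3 and 7.03, 0.0131 and 3.79 CPM in the mutants, and Crx, of photoreceptors, at 0.141, 0.0442 and 0.109 CPM and 9.55, 0 and 3.76 CPM. In both cases library 1 was highest and library 3 next, while library 2 lay no higher than the highest control, so the groups overlap. The calls of Atoh7 and Crx ended without any 1 control library or mutant library 1 (adjusted p up to 0.0862 and 0.108). Hes5, a Notch target in neural progenitors, differed from both: it was at 0.223, 0.221 and 0.0435 CPM in controls and 3.98, 6.79 and 4.50 CPM in mutants, highest in library 2. The number of rises in the list was 2 with limma-voom, and 3, 1, 4 and 5 without control library 1, control library 2, control library 3 and mutant library 1.

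Neuronal genes followed the same libraries. Of 19 tested, 13 rose with all 3 mutants, in library 2 alone 3 rose and 2 fell, and the medians were 2.91, 0.14 and 2.23. Tubb3, a neuronal tubulin, was at 13.2, 11.7 and 10.3 CPM in controls and 88.1, 17.6 and 48.3 CPM in mutants, and Elavl3, a neuronal RNA-binding protein, at 0.552, 0.177 and 0.326 CPM and 18.8, 0.131 and 11.3 CPM. Stmn2, of growing axons, was at 4.96–6.24 CPM in controls and 54.6, 6.94 and 28.2 CPM in mutants. The calls of Elavl3 and Stmn2 ended without any 1 control library (adjusted p up to 0.0948 and 0.0654), and that of Elavl3 also without mutant library 1. Prph, an intermediate filament of peripheral neurons, did not follow them: it rose from 0.519–1.02 to 4.68, 3.69 and 3.70 CPM, nearly alike in all 3 (log2 fold change 2.33, SE 0.27, adjusted p = 0.000406). The number of neuronal rises was 3 with limma-voom and 3, 3, 4 and 5 without control library 1, control library 2, control library 3 and mutant library 1. The summed level of the list was 60.1–65.4 CPM in controls and 406, 74.9 and 241 CPM in mutants.

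**Figure D4:**
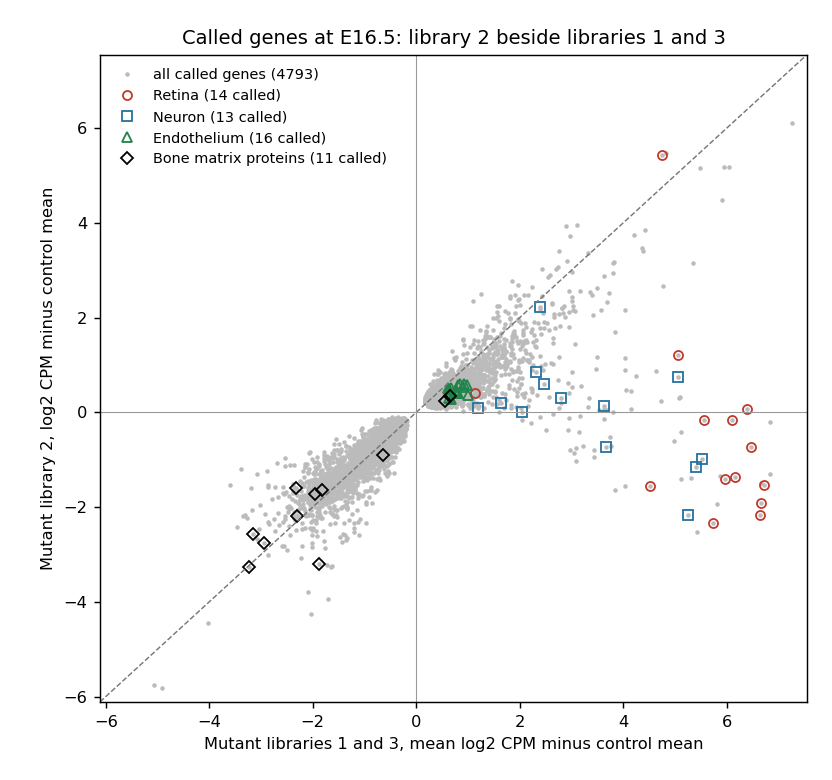
Difference from the control mean (log2 CPM) of the 4793 called genes, with the mean of mutant libraries 1 and 3 on the x axis, mutant library 2 on the y axis and equal values on the dashed line. Most retinal (circles) and neuronal genes (squares) lie far right of the line, near or below 0 in library 2, whereas bone matrix (diamonds) and endothelial genes (triangles) lie near the line.

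Glial, eye and other cell types changed less. Of 13 Schwann cell and glial genes 1 rose and 2 fell: Ngfr, the low-affinity neurotrophin receptor, rose from 41.5, 39.8 and 42.6 CPM to 102, 91.6 and 98.8 CPM (log2 fold change 1.24, SE 0.07, adjusted p = 8.71e-06), Mbp, a myelin protein, fell from 48.3–50.9 to 32.6–37.8 CPM, and the defining factor Sox10 was at 7.27–8.89 and 9.001–10.03 CPM and not called. The glial falls numbered 1 without any control library or mutant library 1 or 3, and the rises 2 with the block and without mutant library 2 and 3 with DESeq2. Of 9 lens genes 1 fell, and the crystallin Cryaa was at 2.86–3.95 CPM in controls and 2.02–2.66 CPM in mutants. Of 4 melanocyte and pigment epithelium genes 1 fell, with Pmel at 1.66–1.86 CPM in controls and 1.37–2.07 CPM in mutants. The 1 call of the melanocyte and pigment epithelium list, that of Lrat, ended without any control or mutant library 3 (adjusted p up to 0.0788).

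Skeletal muscle genes fell in 5 of 23 cases (21.7%, beside 15.7% of all genes tested) from low levels. The list summed to 37.4–50.5 CPM in controls and 35.5, 33.4 and 26.0 CPM in mutants. Myl4, an embryonic myosin light chain, fell from 5.83–8.84 to 2.49–4.18 CPM. The falls numbered 3 without control library 2 or 3 or mutant library 3. Of 21 white blood cell genes 3 fell (14.3%, near the share of all genes). Among them was Itgam, a myeloid integrin (16.02–17.7 to 9.16–11.0 CPM), while Ptprc, Cd68 and C1qa overlapped between the groups. Of 10 erythroid genes 1 fell, Tfrc, and its call ended without control library 1, 2 or 3 or mutant library 1 (adjusted p up to 0.0958). Of 8 adipocyte and lipid uptake genes 5 fell: Cd36, a fatty acid transporter, from 33.9, 36.8 and 32.3 CPM to 14.1, 14.8 and 14.5 CPM (log2 fold change -1.25, SE 0.08, adjusted p = 1.53e-05) and Car3, a carbonic anhydrase of fat and muscle, from 6.44–10.2 to 2.03–2.23 CPM, while Pparg and Fabp4, which define fat cells, were not called. The lipid falls numbered 3 without control library 1 or 3.

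Cell cycle genes rose slightly in 15 of 32 cases, with a median of 0.23 in the fit and 0.22, 0.22 and 0.24 in the 3 mutant libraries. Rrm2, a subunit of ribonucleotide reductase, was at 84.1, 77.3 and 84.4 CPM in controls and 106, 106 and 111 CPM in mutants (log2 fold change 0.39, SE 0.07, adjusted p = 0.00275), and Mcm3, of the replication helicase, at 96.1–103 and 123–133 CPM. Mki67 and Top2a, general markers of dividing cells, were at 282–336 and 309–373 CPM in controls and 331–384 and 349–407 CPM in mutants. Neither was called, and the adjusted p of Mki67 was 0.0969, or 0.00647 with the replicate block. The count hung on 2 controls: it was 8 without control library 1 and 2 without control library 2, and it was 4 in library 2 alone.

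Larger changes met single regulators of the cycle. Cdk4, the kinase of D cyclins, rose from 398, 397 and 342 CPM to 1312, 1788 and 1588 CPM (log2 fold change 2.04, SE 0.12, adjusted p = 1.25e-05), and Cdk6, its relative, from 8.15–11.8 to 16.9, 33.8 and 23.3 CPM. Trp53, the gene of p53, rose from 92.7, 92.1 and 96.3 CPM to 190.3, 372 and 356 CPM (log2 fold change 1.71, SE 0.22, adjusted p = 0.000731). The p53 targets Cdkn1a and Mdm2 fell, from 318–370.1 to 191–254 CPM and from 82.0–86.1 to 62.1–63.5 CPM, so the gene of p53 and these targets went opposite ways. Of the 20 genes in the list of D cyclins, CDK inhibitors and p53 targets 4 rose, 2 fell and 14 were not called, around a median of 0.09.

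Notch genes rose in 8 of 18 cases, or 5 without control library 2 and 2 in mutant library 2 alone. Dll3, a ligand of neural and somite tissue, rose from 0.174–0.399 to 2.68, 4.22 and 1.996 CPM and, like Hes5, was highest in mutant library 2. Notch1, a receptor, was at 168–203 and 161–205 CPM and was not called. Jag1 and Hes1, a ligand and a target, were not called (adjusted p = 0.204 and 0.159), but with the replicate block both were among 4 Notch genes called lower (0.0283 and 0.0153). Glycolysis and hypoxia genes fell in 4 of 21 cases (19.0%, beside 15.7% of all genes tested), around a median of -0.09. The falls numbered 1 without control library 1 and 2 without control library 2 or 3. Slc2a1 and Ldha, the glucose transporter and lactate dehydrogenase, overlapped between the groups.

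The largest changes were ranked by the mutant library that moved least, so that no gene enters through 1 or 2 libraries, among genes with a mean log2 CPM of at least 1. Genes below that level, such as Cytl1, Hes5 and Dmp1, are left out of the ranking although their changes were as large. Within it Fgf8 led the rises, by 5.43, 5.16 and 5.52 (log2 CPM difference) in the 3 libraries. After it came Rpl29, a ribosomal protein gene (1.47, 1.31 and 1.32 CPM in controls, 34.9, 61.7 and 44.8 CPM in mutants), which has near-identical copies in the genome, so its reads may be split among them. Cbln4, a secreted synapse organiser, was at 0.329, 0.243 and 0.522 CPM and 29.0, 8.23 and 16.8 CPM. Then followed Dlx1as, an antisense RNA of Dlx1 that cannot be told from it without strand, the kinase gene Stk32b (1.72–2.18 to 32.2, 14.9 and 22.9 CPM), Col2a1, Spry4, Col9a1, Smad9 and Dlgap1. The steepest falls in the ranking were those of Ibsp, Krt76, Runx2, Fn1, Lox, Col1a2, Sp7, Hhip, Dlx5 and Slc13a5, in that order, and 7 of these 10 stand in the osteoblast, bone matrix, mineralisation or collagen lists.

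The difference between the genotype effects at E16.5 and E14.5 was tested in 1 fit of all 12 libraries, which called 3921 of 17550 genes (22.3%), or 6055 with the replicate number as a block and 2017 with mutant library 2 alone at E16.5. It is given for a panel of 15 genes. At E14.5 Runx2 was at 300.5, 259 and 326 CPM in controls and 152, 173 and 202 CPM in mutants (CPM of the 12-library scaling), a fall of smaller size, and the effect at E16.5 was lower by 2.20 on the log2 scale (SE 0.23, adjusted p = 4.87e-05). Sp7, Ibsp and Col1a2 also fell more on the log2 scale at E16.5, with differences of -1.16, -1.11 and -1.83. Their levels were 215–338, 1622–2006 and 5742–6675 CPM in E14.5 controls and 97.4–117, 365–429 and 2997–3484 CPM in E14.5 mutants. The E16.5 controls were themselves lower, at 40.5–44.0, 279–399 and 2488–2889 CPM. Col2a1 rose from 57.8, 45.1 and 65.2 to 86.5, 81.1 and 90.1 CPM at E14.5, and its rise was larger at E16.5 by 2.63 (SE 0.28, adjusted p = 4.60e-05). The effects on Spry4 and Dusp6 were also larger at E16.5, by 1.63 and 0.88.

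The vessel genes of the panel, Vegfa and Cldn5, also differed between the ages. At E14.5 Vegfa was at 80.0, 88.1 and 77.9 CPM in controls and 79.8, 107 and 85.1 CPM in mutants, and the effect at E16.5 was lower by 2.09 on the log2 scale (adjusted p = 8.94e-05). Cldn5, a tight junction gene of endothelium, was at 35.5, 32.3 and 32.7 CPM in E14.5 controls and 28.5, 30.5 and 30.3 CPM in E14.5 mutants. At E16.5 both groups were lower, at 14.8–16.4 CPM in controls and 23.0–26.8 CPM in mutants. Its genotype effect was higher at E16.5 by 0.88 (adjusted p = 0.000124). No difference between ages was called for Fgf8 (0.27, SE 0.30), Etv5 (0.01, SE 0.15), Acan (-0.06, SE 0.17), Shox2 (0.38, SE 0.16; adjusted p = 0.114, or 0.0410 with the replicate block and 0.00557 without mutant library 2) or Foxj1 (-0.77, SE 0.50). Krt76 was near 0 in every E14.5 library, and its difference of -3.27 (SE 1.16) was not called (adjusted p = 0.0621). The same test does not show that these 6 effects are equal at the 2 ages.

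**Figure D5:**
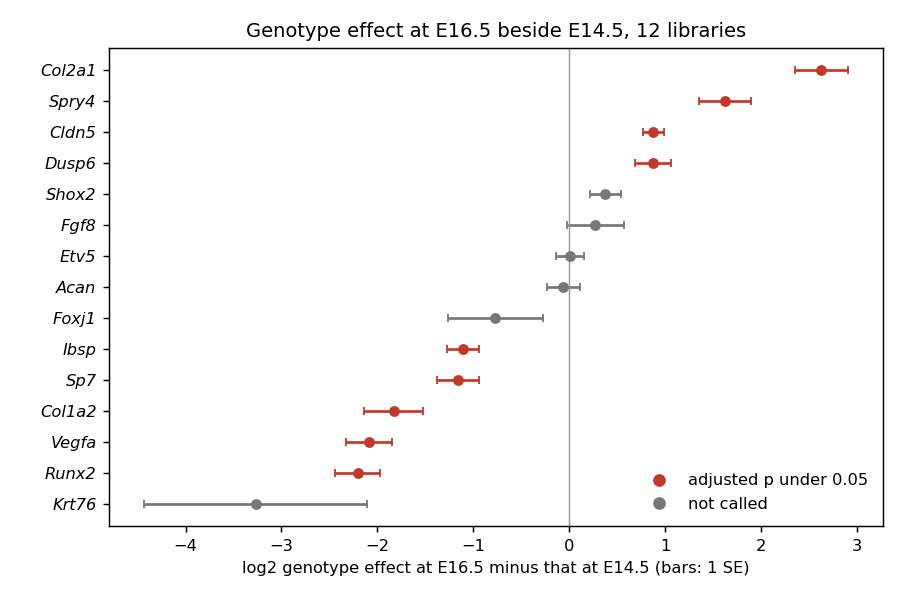
Genotype effect at E16.5 minus that at E14.5 on the log2 scale (x axis, bars of 1 SE) for the 15 panel genes (y axis), from the fit of 12 libraries, with called genes in red and the others in grey. Col2a1 and Spry4 lie at 2.63 and 1.63, and Runx2 and Vegfa at -2.20 and -2.09.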

How the data were processed

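Total RNA of the anterior hard palate was sequenced in 12 libraries, 3 for each of 4 groups of genotype and age. The authors deposited raw read counts per gene symbol, 1 file of 24391 genes for each library, and HISAT2, featureCounts, DESeq2 and the mm9 genome are named in the submitters' processing notes. The aligner version, annotation and strand setting are not given in the sources used here. The authors' deposited comparison table, with its log2 fold changes and adjusted p-values, was used only for its count of calls. Another 24 deposited columns of values per sample were not used. Of the symbols 27 had been turned into dates and hold 0.236% of E16.5 counts, and 23585 matched the reference's gene names.

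Genes passing edgeR's filterByExpr (minimum count 10) were tested with its quasi-likelihood test on TMM-scaled counts (edgeR 4.0.16, limma 3.58.1, DESeq2 1.42.0, R 4.3.3), with Benjamini-Hochberg adjustment over all genes tested. E16.5 was fitted on its 6 libraries and the age difference on all 12. Standard errors are the log2 fold change over the square root of F. Log2 CPM used a prior count of 2. With 3 against 3, an exact permutation test could not go below 0.1, so none was run.

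The members and the 47 gene lists were chosen with earlier results of these data known. Of 882 list genes 875 have a row and 816 passed the filter, and the counts given for a list are over these. The summed level of a list is over all its genes with a row, also those below the filter. Named genes are Fgf8, Shox2, the age panel, the marker genes marked in each list, up to 5 called genes of each list with the largest change, and the 10 largest rises and falls by the least-moved mutant library (mean log2 CPM of at least 1, groups apart). The genes Cbfb, Msx2, Serpinf1, Tnn, Col11a1, Bmp6, Cyp2f2, Ccdc40 and Mdm2 fell outside this rule and were named after their values were seen. A few genes that the rule covers are not reported here.

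The labels number replicates alike in both groups. Control and mutant libraries with the same number deviated together from their group means. For numbers 1, 2 and 3, r was 0.131, 0.186 and 0.247 over 17169 genes. It was 0.197, 0.235 and 0.699 over the 13696 with a mean log2 CPM above 1, so largest for number 3. Between unlike numbers r ran from -0.194 to -0.0502 over the 17169 genes and from -0.429 to 0.112 over the 13696. A fit with the replicate number as a block was therefore run. Other alternatives were 2 scalings, DESeq2, limma-voom, 2 filters, a 2-fold minimum, a term for replicates numbered 3, all 12 libraries, leaving out each library, and mutant library 2 alone. The tests were tried on simulated counts first.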

Additional observations from a re-analysis of the deposited data

Results flagged for a closer look

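For 9 of the 15 panel genes the genotype effect at E16.5 differed from that at E14.5 by the test of the difference itself. That fit of all 12 libraries, with edgeR's quasi-likelihood test and Benjamini-Hochberg adjustment, called 3921 of 17550 genes (22.3%). The panel was picked by name, so its count cannot be read as a rate beside that share. The FGF response genes Spry4 and Dusp6 had larger genotype effects at E16.5, by 1.63 (adjusted p = 0.00106) and 0.88 (adjusted p = 0.00504) on the log2 scale. Their mutant levels overlapped between the ages, and their control levels were lower at E16.5. Bone genes had larger falls on that scale, with differences of -2.20 for Runx2, -1.16 for Sp7, -1.11 for Ibsp and -1.83 for Col1a2 (adjusted p = 4.87e-05, 0.00247, 0.000571 and 0.00111). The control levels of these bone genes were also lower at E16.5 than at E14.5. For the cartilage collagen Col2a1 the difference was 2.63, for Vegfa -2.09 and for Cldn5 0.88 (adjusted p = 4.60e-05, 8.94e-05 and 0.000124).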

How the results depend on the processing

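The total of 4793 calls stayed between 3738 and 6190 under 2 other scalings, DESeq2, limma-voom, 2 other filters, a term for replicates numbered 3 and the fit of all 12 libraries. It was 2781 to 5486 with 1 library left out, and the rises and falls were then 973 to 2533 and 1808 to 2953. Against a 2-fold minimum 571 genes were called, 116 higher and 455 lower. With mutant library 2 alone 2496 were called, 729 higher and 1767 lower. With the replicate block 6742 were called, 3211 higher and 3531 lower. The calls for the age difference numbered 3921, 3807 to 4741 under another scaling, no filter or DESeq2, 2976 to 4723 with 1 library left out, 6055 with the replicate block and 2017 with library 2 alone. The share of higher genes among the calls was 43.8%, and 48.7% with upper-quartile factors. Of 276 called genes that the naming rule covers, 189 kept their call without each library in turn and 190 in library 2 alone, and the replicate block ended the call of 8. Beside the genes whose blocked value is given above, the block changed no other call of a gene named here. The sign turned in library 2 alone for 15 of the 276. Among these were Atoh7 (-1.90), Crx (-6.09), Elavl3 (-1.41) and Fgf15 (-0.40, all log2), most of those named at few counts there. The cause of these shifts was not tested.

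Depth limits genes of few reads per library, such as Matn1, for which a difference was not detectable. Library 2 alone has no replicate, and its spread is assumed to equal that of the controls. Embryo sex markers and retinal transcripts differed between the groups and were not separated from genotype. Counts per symbol do not separate the transgene from Fgf8, nor near-identical copies from each other.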

Other observations

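Of 3 tooth genes tested, Ambn, an enamel matrix protein, rose from 2.65, 1.59 and 2.16 CPM in control libraries 1, 2 and 3 to 5.93, 5.23 and 5.18 CPM in mutant libraries 1, 2 and 3 (log2 fold change 1.35, SE 0.21, adjusted p = 0.00185, edgeR). The other 2 were not called. Of the other list genes, 59 were below the count filter and were not tested.

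Dlgap1, a scaffold protein of synapses, was the tenth gene by rise in the least-moved mutant library among genes with a mean log2 CPM of at least 1, at 2.02, 2.33 and 2.37 CPM in controls and 14.9, 10.9 and 12.9 CPM in mutants, with library 2 between the controls and the other mutants. Acvrl1, a receptor for BMP9 on endothelium, rose from 37.9, 32.9 and 35.4 CPM to 74.2, 61.2 and 66.8 CPM (log2 fold change 0.93, SE 0.09, adjusted p = 0.000132, edgeR).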
